A study of Mus musculus with 7 samples.

Results

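The 44 genes described here encode the folding machinery of the endoplasmic reticulum (ER), and they were taken by gene symbol from an expression table of 49382 genes in mouse embryonic fibroblasts (MEFs). Each of the 44 symbols was on 1 row, and the genes fall into 9 subfamilies by the function of their products: HSP70 and HSP90 class chaperones (5 genes), J-domain cochaperones and SDF2 proteins (7), MANF and CRELD proteins (3), lectin chaperones and their glucosyltransferases (4), soluble disulfide isomerases (9), membrane thioredoxin proteins (5), thiol oxidases (3), prolyl isomerases (7) and the collagen chaperone Serpinh1 (1). RNA-seq libraries came from wild-type primary MEFs, 1 from control cells and 1 from each of 6 stresses applied after overnight culture. The stresses of 10 hours were medium without glucose, medium without glutamine, hypoxia in 0.1% oxygen, and ER stress from 1 μM thapsigargin. The stresses of 3 hours were oxidative stress from sodium arsenite (NaAsO2) at 10 μM, and osmotic stress from NaCl at 100 mM. The comparisons ask which of these genes changed in each stress, and which of them did not change when the ER itself was the target. By the study's methods such MEFs come from embryos freed of head and liver and are sorted to be negative for CD45, CD11b and F4/80, which mark macrophages. Each condition is a single library, so there is no spread between replicates to set a difference against and no p-value is given.

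Proteins that enter the secretory pathway fold in the ER lumen. HSP70 and lectin chaperones hold them until folding is complete, disulfide isomerases make and rearrange their disulfide bonds, thiol oxidases return those isomerases to the oxidised state, and prolyl isomerases turn the peptide bonds before proline. When unfolded proteins build up, the sensors ATF6, IRE1 (gene Ern1) and PERK (gene Eif2ak3) start the unfolded protein response, which raises transcription of chaperone genes. Thapsigargin sets off this response by blocking the pump that fills the calcium store of the ER. Fibroblasts secrete large amounts of collagen, whose folding needs Serpinh1, prolyl isomerases and collagen hydroxylases in addition to the general machinery.

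Levels are in TPM, the share of a library's transcripts that a gene takes, corrected for transcript length and scaled to a total of 1000000. Within a library, TPM can be compared between genes. Between libraries it compares shares of a fixed total, so a large rise in some genes lowers the TPM of others. TPM keeps no read count, so sequencing depth is unknown. A change is the difference of log2(TPM + 1) from the control library, a scale that understates changes of low genes, and a gene is counted as raised or lowered where that change is past 2-fold. The background for each count is the 12909 genes whose TPM averaged 2 or more across the 7 libraries. All 44 genes passed this filter, and the lowest value of any of them in any library was 3.16 TPM. All 10 fibroblast markers were kept, with summed levels between 6170 TPM in ER stress and 12820 TPM in hypoxia, while the 10 macrophage markers summed to between 7.73 and 14.3 TPM, and C1qa was at 0 in all 7 libraries. The 5 endothelial markers summed to between 4.09 and 9.07 TPM and the 5 epithelial markers to between 3.88 and 11.8 TPM (highest in ER stress). In each library Krt18 made up most of the epithelial sum. Of 4 markers of secretory cells, Agr2 and Mzb1 were at 0 in all 7 libraries, and Bhlha15 was at 9.39 TPM in ER stress and under 1 TPM elsewhere. The part of these markers in the results was not tested.

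ER stress raised 19 of the 44 genes past 2-fold and lowered 0, where 8.6% of all kept genes were raised and 11% were lowered. Sdf2l1, Dnajb9, Creld2, Hspa5, Hyou1 and Pdia4 were each raised by more than 3 log2 units. The median log2 change of the 44 genes was 0.82, with quartiles at 0.00 and 1.81, against a median of 0.00 over all kept genes. Hypoxia raised 1 of the 44 (3.57% of kept genes were raised and 2.64% lowered), the thiol oxidase Ero1l. Osmotic stress raised 1, the cochaperone Dnajb9 (background 3.08% raised and 8.76% lowered). Glutamine depletion and oxidative stress each lowered 1, the SDF2 protein Sdf2l1 (background 3.21% raised and 3.21% lowered in glutamine depletion, 3.94% and 4.85% in oxidative stress). Glucose depletion moved none of the 44 past 2-fold in either direction (background 1.83% raised and 2.41% lowered). In all, 16 genes passed 2-fold in ER stress alone, 3 in ER stress and in at least 1 other condition, and 25 in no condition.

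**Figure D1:**
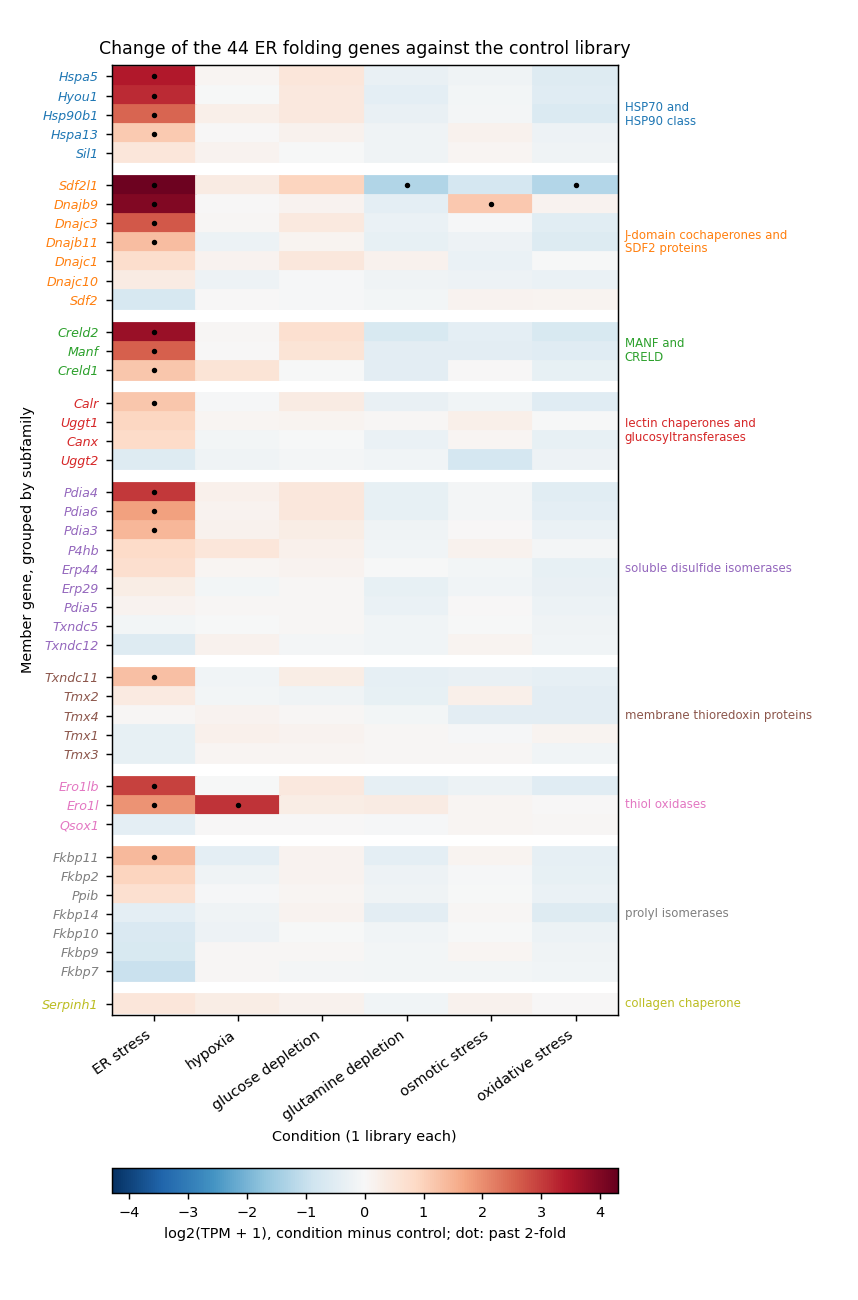
Change of each of the 44 genes (rows, grouped by subfamily and ordered by their change in ER stress) in the 6 stress libraries (columns), as log2(TPM + 1) minus that of the control library, with red for higher and blue for lower values. Black dots mark changes past 2-fold, of which 19 lie in the ER stress column and 1 in each of hypoxia, glutamine depletion, osmotic stress and oxidative stress.

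Promoter sequences were read for 37 of the 44 genes from RefSeq (GRCm38.p6, 250 bases before to 50 bases after each start). They were searched on both strands for the ER stress response element (ERSE), CCAAT and CCACG separated by any 9 bases, which ATF6 binds together with the CCAAT factor NF-Y. The element is shown because it was present in the promoters of 8 of the 37 genes (21.6%) and of 0.137% of the 27025 genes with a promoter in the table. Its 9 matches follow with 5 bases on either side, 5′ to 3′ on the strand of the gene, with CCAAT and CCACG, or their reverse complements ATTGG and CGTGG, in capitals.
Hspa5 (chr2:34772020-34772048, + strand): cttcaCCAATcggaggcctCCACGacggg
Creld2 (chr15:88819515-88819543, + strand): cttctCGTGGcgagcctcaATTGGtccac
Ero1lb (chr13:12565677-12565705, + strand): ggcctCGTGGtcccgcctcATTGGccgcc
Dnajc3 (chr14:118937822-118937850, + strand): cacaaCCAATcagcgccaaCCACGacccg
Hsp90b1, distal match (chr10:86705633-86705661, − strand): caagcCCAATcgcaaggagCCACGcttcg
Hsp90b1, proximal match (chr10:86705528-86705556, − strand): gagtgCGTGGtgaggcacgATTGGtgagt
Pdia6 (chr12:17266486-17266514, + strand): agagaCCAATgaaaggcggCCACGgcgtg
Calr (chr8:84847070-84847098, − strand): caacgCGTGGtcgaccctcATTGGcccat
Canx (chr11:50325795-50325823, − strand): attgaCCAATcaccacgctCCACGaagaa

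The matches began between 65 bases (Hspa5) and 212 bases (Hsp90b1, distal) upstream of the RefSeq start. Hsp90b1 is shown at greater length because its promoter was the one with 2 matches. The stretch from 250 to 66 bases upstream of its start (chr10:86705510-86705694, − strand, 185 bases, no GENCODE exon) reads as follows, with the paired parts of both matches in capitals.
Hsp90b1: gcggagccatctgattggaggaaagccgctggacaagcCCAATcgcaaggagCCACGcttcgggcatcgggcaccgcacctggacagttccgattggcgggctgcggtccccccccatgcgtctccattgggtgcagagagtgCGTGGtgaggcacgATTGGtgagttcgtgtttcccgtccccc

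Of the 8 genes with the element, 7 were raised in ER stress, and the eighth, Canx, changed by 0.82. Their changes ranged from 0.82 to 3.71 with a median of 2.59. Of the 29 genes whose promoter held no match, 9 were raised, and their changes ranged from -0.94 to 4.22 with a median of 0.70. The element was searched by name as a known element of the ER stress response, so these counts are descriptions and no independent test. A second form of the element, ATTGG and CCACG separated by 1 base (ERSE-II), was found in 1 of the 37 promoters and in 0.0444% of all genes with a promoter. Among the 9016 kept genes with a promoter, 17 held ERSE and 8 held ERSE-II. The ERSE-II match in the 37 promoters lay in Dnajb11, which codes for the J-domain protein ERdj3, beginning 7 bases after the start.
Dnajb11 (chr16:22857847-22857867, + strand): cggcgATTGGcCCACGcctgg

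CCACG alone, which is part of both elements, was in 28 of the 37 promoters (75.7%) and in 35.5% of all genes with a promoter. Among the 9016 kept genes with a promoter, which passed the same filter as the 44, 4839 held it. Sdf2l1, with the largest change of the 44 in ER stress, held no match to either longer element and 3 to CCACG. Its 250 bases before the start (chr16:17132384-17132633, − strand) are given with CGTGG, the reverse complement of CCACG, in capitals.
Sdf2l1: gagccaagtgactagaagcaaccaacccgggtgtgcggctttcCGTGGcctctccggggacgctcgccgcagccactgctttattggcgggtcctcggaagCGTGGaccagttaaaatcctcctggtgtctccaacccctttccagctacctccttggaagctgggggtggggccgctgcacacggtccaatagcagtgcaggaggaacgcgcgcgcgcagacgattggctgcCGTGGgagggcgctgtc
Matches are letters in a window, and no binding was measured in these libraries.

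**Figure D2:**
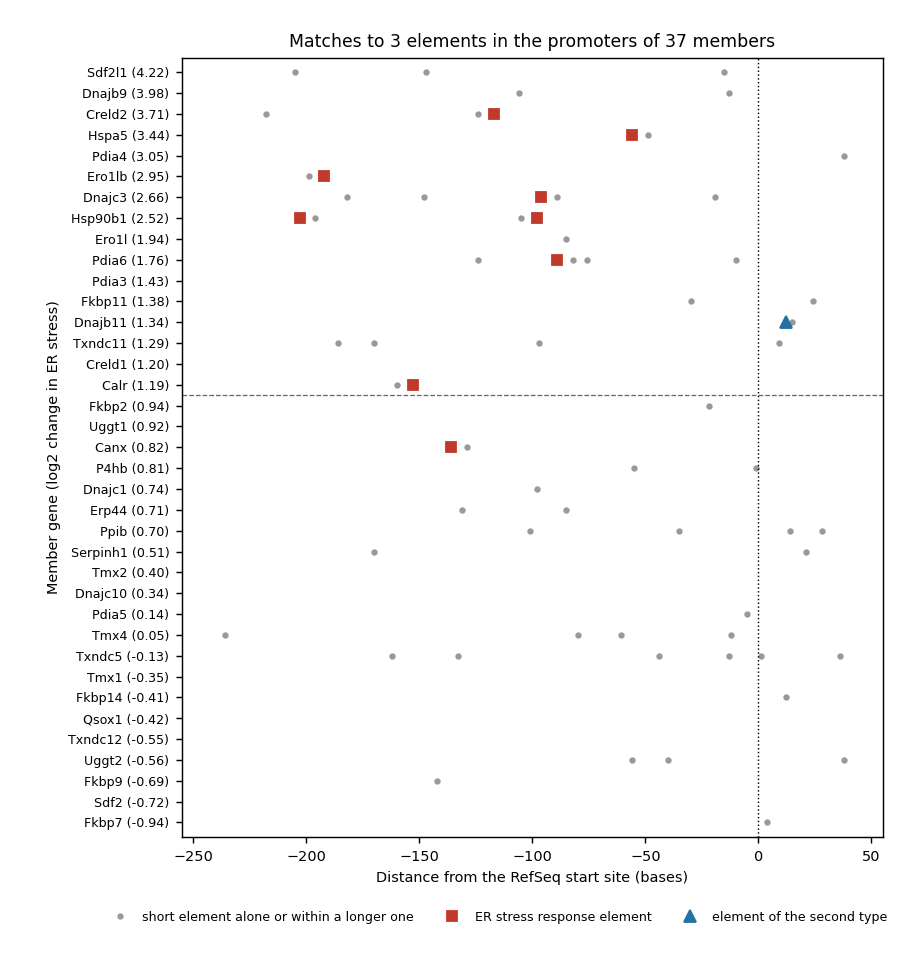
Position of each match (horizontal axis, bases from the RefSeq start, negative upstream) in the promoters of 37 genes, ordered from the highest to the lowest log2 change in ER stress, which stands in brackets after each name. Red squares are the ER stress response element, the blue triangle is ERSE-II and grey points are CCACG alone or within them, with matches of every RefSeq start of a gene shown. The dashed line divides genes past 2-fold from the others, and 7 of the 8 genes with red squares stand above it.

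Of the 5 genes of the HSP70 and HSP90 class, 4 were raised in ER stress. Hspa5 (chr2:34771970-34777547 on GRCm38, + strand), which encodes BiP, the HSP70 of the ER lumen and a regulator of the stress sensors, was at 1165 TPM in the control library, 12611 in ER stress, 1224 in hypoxia, 1689 in glucose depletion, 943 in glutamine depletion, 1034 in osmotic stress and 784 in oxidative stress. Its ER stress value was 10.8 times the control value (log2 change 3.44), and Hspa5 went from the 145th highest TPM of all genes in the control library to the highest in the ER stress library. Hsp90b1, which encodes the ER form of HSP90, went from 1228 to 7025 TPM (2.52) and ranked 4th. Hyou1, a large HSP70 relative that exchanges nucleotide on BiP, went from 123 to 1139.8 TPM (3.21).

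Hspa13, which encodes an HSP70-like ATPase without a substrate domain, went from 34.4 to 76.0 TPM (1.12) and was the raised gene nearest to the 2-fold line. Sil1, which encodes the other nucleotide exchange factor of BiP, stayed within 2-fold. Its level was 31.4 TPM in the control, 45.4 in ER stress, 35.1 in hypoxia, 31.1 in glucose depletion, 27.6 in glutamine depletion, 33.7 in osmotic stress and 27.7 in oxidative stress. The ER stress value of Sil1 was the highest of the 7 and its log2 change was 0.52. The 5 genes of the class together went from 0.258% to 2.09% of all TPM, 8.10 times the control, a sum of which Hspa5 was the largest part, and their median log2 change was 2.52.

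In the group of J-domain cochaperones, which stimulate the ATPase of BiP, and SDF2 proteins, 4 of 7 genes were raised. Sdf2l1 (chr16:17130138-17132383, − strand), whose product works with ERdj3 to keep proteins from aggregating, was at 31.1 TPM in the control library, 598 in ER stress, 40.4 in hypoxia, 60.8 in glucose depletion, 12.1 in glutamine depletion, 18.2 in osmotic stress and 12.4 in oxidative stress. It had the highest change of the 44 genes in ER stress (4.22, or 19.2 times the control TPM), the highest in glucose depletion (0.94) and the lowest in glutamine depletion (-1.30) and oxidative stress (-1.26). Its paralogue Sdf2 stood at 70.7 TPM in the control, 42.6 in ER stress, 72.2 in hypoxia, 68.1 in glucose depletion, 65.5 in glutamine depletion, 78.6 in osmotic stress and 77.4 in oxidative stress. The ER stress value of Sdf2 lay below the other 6, with a log2 change of -0.72, and the ratio of Sdf2l1 to Sdf2 went from 0.440 in the control to 14.02 in ER stress.

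Dnajb9 (chr12:44205559-44210326, − strand), which encodes ERdj4, a cochaperone of ER-associated degradation, was at 31.4 TPM in the control library, 512 in ER stress, 32.1 in hypoxia, 35.4 in glucose depletion, 23.0 in glutamine depletion, 72.2 in osmotic stress and 35.1 in oxidative stress. Its log2 changes were 3.98 in ER stress and 1.18 in osmotic stress, the only rise past 2-fold among the 44 genes at 3 hours. Dnajc3 (2.66), whose product binds misfolded proteins, and Dnajb11 (1.34) were also raised in ER stress. Dnajc1 (0.74), a membrane J-domain protein, and Dnajc10 (0.34), a J-domain protein with thioredoxin domains that reduces disulfides, stayed within 2-fold. Transcripts of Dnajb9 share 10.8% of their 31-base words with the gene Gm6568, so some of its reads could be assigned to either.

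All 3 genes of the MANF and CRELD group were raised, with a median log2 change of 2.56. Manf, which encodes a protein that binds BiP and can be secreted, went from 441 to 2609 TPM (2.56). Creld2 (chr15:88819646-88826683, + strand), which encodes a soluble ER protein, was at 90.4 TPM in the control library, 1193 in ER stress, 93.96 in hypoxia, 146 in glucose depletion, 55.3 in glutamine depletion, 67.5 in osmotic stress and 55.4 in oxidative stress. Its changes were 3.71 in ER stress, 0.68 in glucose depletion and -0.70 in both glutamine depletion and oxidative stress. Creld1, the membrane-bound relative, was at 24.1 TPM in the control, 56.6 in ER stress, 36.5 in hypoxia, 23.7 in glucose depletion, 17.3 in glutamine depletion, 24.2 in osmotic stress and 18.5 in oxidative stress. Creld1 thus changed by 1.196 in ER stress and by 0.58 in hypoxia, where Creld2 changed by 0.06.

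The 4 lectin chaperones and glucosyltransferases serve the calnexin and calreticulin cycle, which retains glycoproteins until they are folded. Of these 4 genes, only Calr passed 2-fold in ER stress. Calr, the soluble lectin chaperone, was at 2293 TPM in the control library, 5242 in ER stress, 2229.9 in hypoxia, 2900.3 in glucose depletion, 1820.3 in glutamine depletion, 2079 in osmotic stress and 1581 in oxidative stress (1.19 in ER stress). It had the highest TPM of the 44 genes in the control library. Canx, its membrane-bound relative, went from 601 to 1063 TPM (0.82). Uggt1, the folding sensor that adds glucose back to unfolded glycoproteins, went from 79.9 to 152 TPM (0.92). Its paralogue Uggt2 was at 18.9 TPM in the control, 12.5 in ER stress, 16.5 in hypoxia, 17.9 in glucose depletion, 17.0 in glutamine depletion, 10.7 in osmotic stress and 15.9 in oxidative stress. The lowest value of Uggt2 was thus in osmotic stress (-0.77), and its change in ER stress was -0.56.

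Of the 9 soluble disulfide isomerases, 3 were raised in ER stress. Pdia4, which encodes ERp72, was at 294 TPM in the control library, 2438 in ER stress, 344 in hypoxia, 411 in glucose depletion, 229.9 in glutamine depletion, 278 in osmotic stress and 208 in oxidative stress (3.05 in ER stress). Pdia6, which encodes P5, went from 437 to 1482 TPM (1.76), and Pdia3, the partner of calreticulin and calnexin, from 1019 to 2739.9 TPM (1.43). P4hb, which encodes protein disulfide isomerase itself and the beta subunit of the collagen prolyl 4-hydroxylase, had the highest control level of the group, 1293 TPM, and reached 2268 TPM (0.81). Erp44 (0.71), which retains the thiol oxidases in the early secretory pathway, and Erp29 (0.31), which lacks the active cysteine pair, stayed within 2-fold.

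Pdia5 and Txndc5 were nearly level in ER stress, with changes of 0.14 (124 to 137 TPM) and -0.13 (426 to 389 TPM). Txndc12 was at 78.7 TPM in the control, 53.6 in ER stress, 90.1 in hypoxia, 74.0 in glucose depletion, 70.7 in glutamine depletion, 85.6 in osmotic stress and 71.2 in oxidative stress. Its ER stress value was below the other 6 libraries (-0.55). The ratio of Pdia4 to Pdia5 went from 2.37 in the control to 17.8 in ER stress.

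Of the 5 membrane thioredoxin proteins 1 was raised in ER stress, and their median change was 0.05 on the log2 scale. Txndc11 was at 24.1 TPM in the control library, 60.2 in ER stress, 21.6 in hypoxia, 30.5 in glucose depletion, 18.2 in glutamine depletion, 19.1 in osmotic stress and 18.4 in oxidative stress (1.29 in ER stress). The 4 TMX genes changed by 0.40 (Tmx2), 0.05 (Tmx4), -0.35 (Tmx1) and -0.35 (Tmx3). Tmx3 had the lowest change of the group and was at 38.5 TPM in the control, 29.9 in ER stress, 41.3 in hypoxia and in glucose depletion, 40.1 in glutamine depletion, 39.6 in osmotic stress and 34.6 in oxidative stress. Transcripts of Tmx2 share 31.5% of their 31-base words with other genes.

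**Figure D3:**
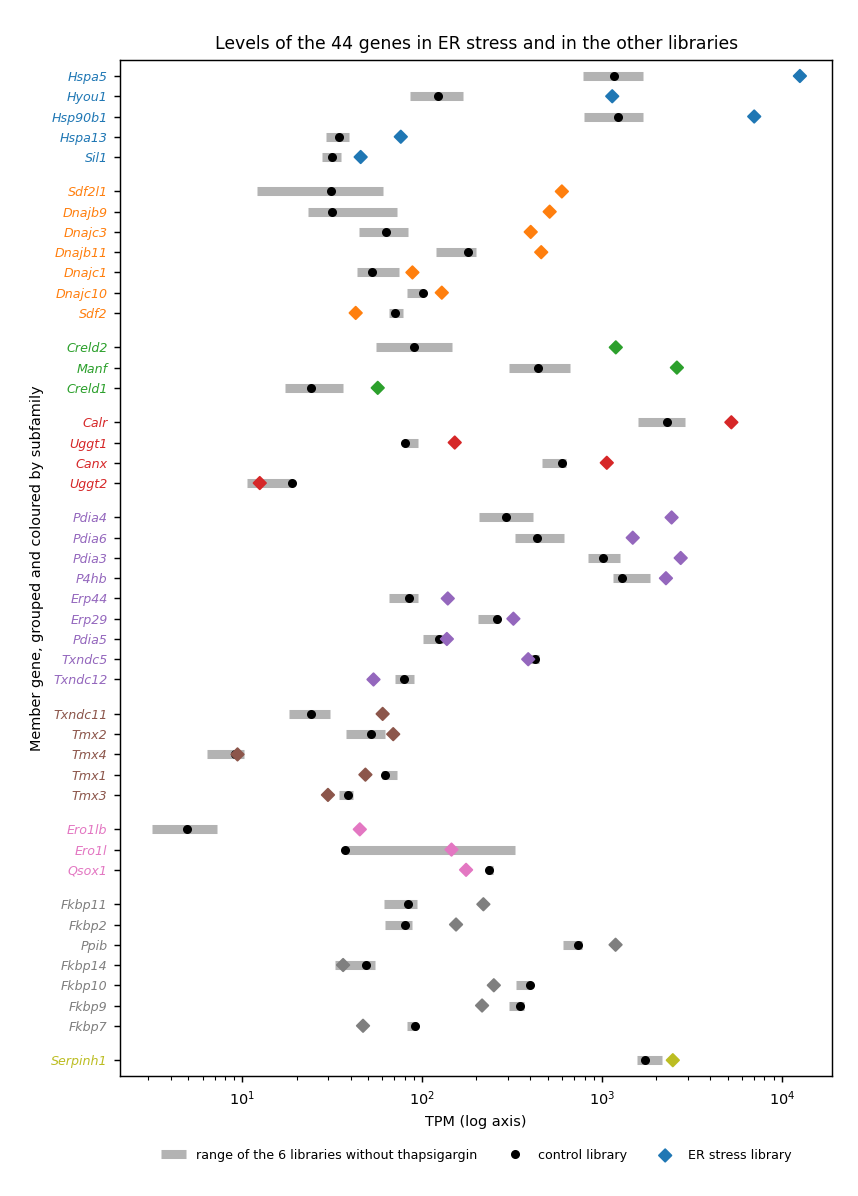
TPM of each of the 44 genes on a log axis, with genes grouped and coloured by subfamily. The grey bar spans the 6 libraries without thapsigargin, the black point is the control and the diamond is ER stress, which lies above the bar in 31 genes, below it in 8 and within it in 5.

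The thiol oxidases divided by stress. Ero1l (chr14:45283087-45318771, − strand), which encodes ERO1 alpha and oxidises protein disulfide isomerase with molecular oxygen, was at 37.2 TPM in the control library, 145 in ER stress, 327 in hypoxia, 46.9 in glucose depletion, 47.8 in glutamine depletion, 39.4 in osmotic stress and 37.2 in oxidative stress. Its log2 changes were 3.10 in hypoxia (8.80 times the control TPM) and 1.94 in ER stress, and it was the one gene of the 44 that was over 2-fold lower in ER stress than in hypoxia (-1.16). Ero1lb (chr13:12565874-12611396, + strand), which encodes ERO1 beta, was at 4.94 TPM in the control library, 44.9 in ER stress, 4.91 in hypoxia, 7.21 in glucose depletion, 3.58 in glutamine depletion, 3.99 in osmotic stress and 3.16 in oxidative stress. It changed by 2.95 in ER stress and by -0.01 in hypoxia.

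Ero1l therefore had 7.53 times the TPM of Ero1lb in the control library, 3.24 times in ER stress and 66.7 times in hypoxia. Qsox1, an oxidase of the Golgi and the secretion route, was at 235.5 TPM in the control, 175 in ER stress, 241 in hypoxia, 240.1 in glucose depletion, 229 in glutamine depletion, 249 in osmotic stress and 241 in oxidative stress. The 6 values of Qsox1 outside ER stress lay close together and the ER stress value below them (-0.42).

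The promoter of Ero1l (RefSeq name Ero1a) was searched for the core of the hypoxia response element, ACGTG or GCGTG, on both strands, and is shown because Ero1l was the one gene of the 44 raised in hypoxia. It held 3 matches before the start, in capitals in the windows that follow, on the strand of the gene and named by their distance upstream in bases (CACGT is the reverse complement of ACGTG).
Ero1l, 128 (chr14:45318686-45318710, − strand): ggaggcgggtGCGTGagcggggcgc
Ero1l, 88 (chr14:45318646-45318670, − strand): cccgaggctcGCGTGgacagaggcg
Ero1l, 63 (chr14:45318621-45318645, − strand): cgcgccgctgCACGTccgcagggga
The core is short, and 31 of the 37 promoters (83.8%) and 46.7% of all genes with a promoter held it. Among the 9016 kept genes with a promoter, which passed the same filter as the 44, 6244 held the core. Where a G follows the core, it overlaps the reverse complement of CCACG, as at 88 bases here.

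**Figure D4:**
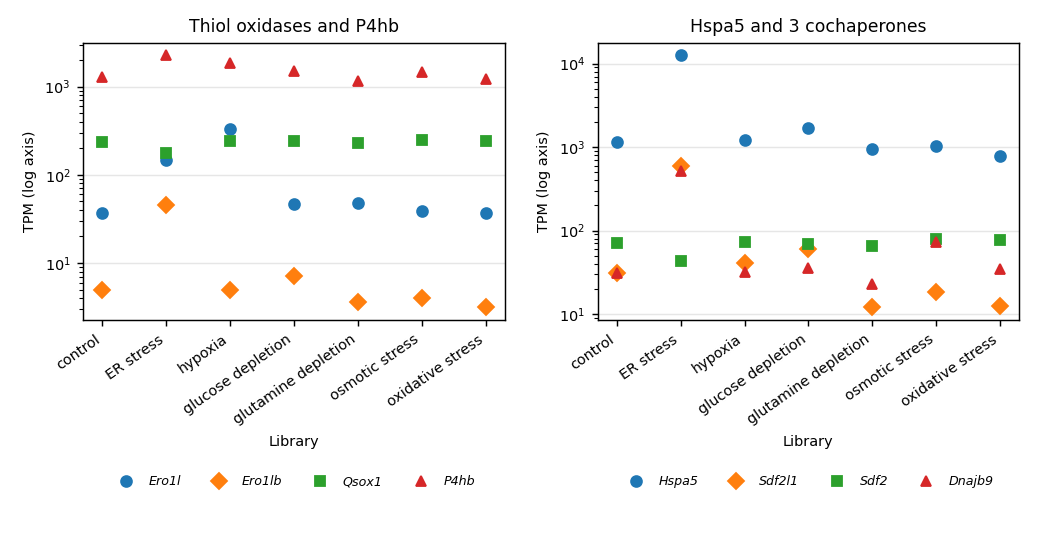
TPM in each of the 7 libraries on log axes, with 1 point per library. On the left, Ero1l is highest in hypoxia (327 TPM) and Ero1lb in ER stress (44.9 TPM), while Qsox1 stays between 175 and 249 TPM, and on the right Hspa5, Sdf2l1 and Dnajb9 are highest in ER stress while Sdf2 is lowest there (42.6 TPM).

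The prolyl isomerases had a negative median in ER stress (-0.41), although none was lowered past 2-fold. Fkbp11, a membrane-anchored isomerase known from secretory cells, was the one raised, with 83.3 TPM in the control library, 219 in ER stress, 61.6 in hypoxia, 93.1 in glucose depletion, 61.5 in glutamine depletion, 89.95 in osmotic stress and 63.3 in oxidative stress (1.38 in ER stress). Fkbp2 (0.94) fell just short of the line, and Ppib, cyclophilin B of the collagen prolyl 3-hydroxylation complex, went from 734 to 1189.7 TPM (0.70). The other 4 were lower than in the control: Fkbp14 (-0.41), Fkbp10 (-0.66), Fkbp9 (-0.69) and Fkbp7 (-0.94). Fkbp10 and Fkbp14 act on collagen. Fkbp7, with the lowest change of all 44 genes, was at 90.9 TPM in the control, 46.8 in ER stress, 93.2 in hypoxia, 85.4 in glucose depletion, 84.2 in glutamine depletion, 84.2 in osmotic stress and 81.9 in oxidative stress.

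Serpinh1, which encodes HSP47, the chaperone of procollagen, was at 1741 TPM in the control library, 2477 in ER stress, 2148 in hypoxia, 1985 in glucose depletion, 1572 in glutamine depletion, 1992 in osmotic stress and 1744 in oxidative stress. Its change in ER stress was 0.51. The collagen genes themselves went the other way. Of 8 collagen genes, 5 were lowered past 2-fold in ER stress, where 11% of kept genes were. All 8 were below the control (median -1.20), with Col3a1 going from 1479 to 352 TPM and Col1a1 from 3154 to 1740 TPM. All 10 fibroblast markers, which include 3 of these collagens, were also below the control in ER stress, by a median of -0.86. A smaller share of fibroblasts and less RNA of these genes per cell cannot be told apart from these genes alone in bulk libraries. From control to ER stress the summed macrophage markers went from 10.1 to 7.73 TPM, the endothelial from 6.63 to 5.68 and the epithelial from 5.90 to 11.8. Most of the macrophage sum was Cd68 (7.21 to 5.26 TPM), and most of the epithelial sum was Krt18 (5.56 to 10.6 TPM). Krt8, the next highest epithelial marker in ER stress, went from 0.172 to 1.00 TPM, and Epcam from 0.0753 to 0. The part of these marker changes in the values of the folding genes was not tested.

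The 25 genes within 2-fold in ER stress thus include members of 8 of the 9 subfamilies, the MANF and CRELD group being without one. Few were level. Only Pdia5, Txndc5 and Tmx4 stayed within 1.2-fold of the control, and 14 of the 44 (31.8%) stayed within 1.5-fold, against 59.8% of all kept genes. Set against the range of all the other libraries, 31 of the 44 genes were higher in ER stress than in every one of the 6 other libraries (33.2% of kept genes were), 8 were lower than in every one (23.8% of kept genes were) and 5 lay within the range. Those 31 hold 13 genes that did not reach 2-fold: Sil1, Dnajc1, Dnajc10, Canx, Uggt1, P4hb, Pdia5, Erp29, Erp44, Tmx2, Fkbp2, Ppib and Serpinh1. The 8 lower ones were Sdf2, Txndc12, Tmx1, Tmx3, Qsox1, Fkbp7, Fkbp9 and Fkbp10, and the 5 within the range were Uggt2, Txndc5, Tmx4, Fkbp14 and Ero1l.

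Just inside the line were Hspa13 (1.12), Calr (1.19) and Creld1 (1.196), and just outside it Fkbp2 (0.94), Uggt1 (0.92), Canx (0.82) and P4hb (0.81). On the lower side Fkbp7 (-0.94) was just outside it. Against the other 10-hour libraries, 18 genes were over 2-fold higher in ER stress than in hypoxia, 16 than in glucose depletion and 21 than in glutamine depletion, where 10.9%, 9.02% and 9.75% of kept genes were. Against hypoxia 1 gene, Ero1l, was over 2-fold lower, with 11.5% of kept genes. The genes were not all those called against the control. Of the 19, Creld1 (0.62) and Ero1l (-1.16) were not over 2-fold higher than in hypoxia, and Hspa13 (0.95), Calr (0.85) and Txndc11 (0.96) were not over 2-fold higher than in glucose depletion. Fkbp2 was added against hypoxia (1.13), and Fkbp2 (1.15) and Canx (1.11) against glutamine depletion.

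The folding genes as a whole took 1.47% of all TPM in the control library, 4.86% in ER stress, 1.62% in hypoxia, 1.78% in glucose depletion, 1.24% in glutamine depletion, 1.45% in osmotic stress and 1.18% in oxidative stress. The ER stress share was 3.32 times that of the control, and the other 5 stress libraries ranged from 0.803 to 1.21 times. Hspa5 alone made up 26.0% of the summed TPM of the 44 genes in ER stress and 7.95% in the control. Summed levels of the subfamilies in ER stress were 8.10 times the control in the HSP70 and HSP90 class, 6.95 in MANF and CRELD, 4.21 in the J-domain and SDF2 group, 2.48 in the soluble disulfide isomerases, 2.16 in the lectin group, 1.42 in Serpinh1, 1.32 in the thiol oxidases, 1.19 in the prolyl isomerases and 1.17 in the membrane thioredoxin proteins.

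**Figure D5:**
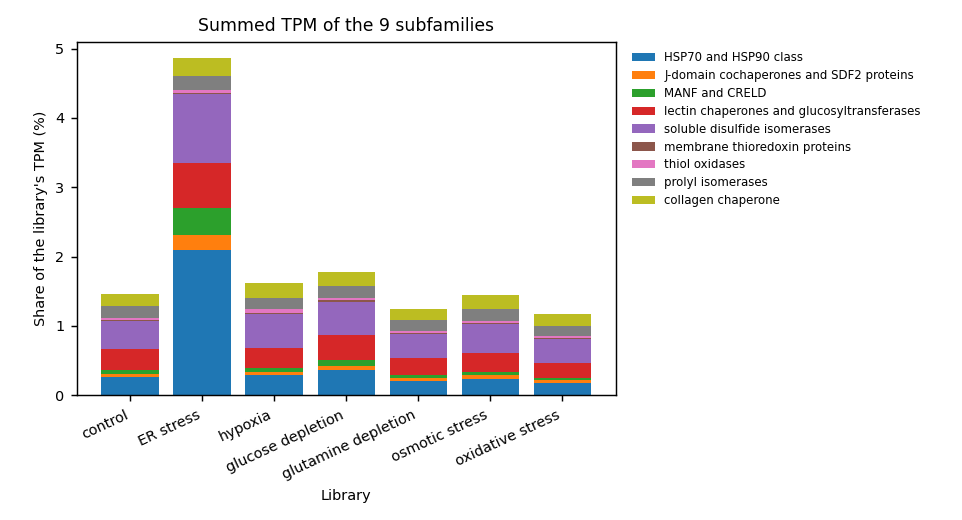
Share of each library's TPM taken by the 44 genes, in percent, with 1 stacked bar per library and 1 colour per subfamily. The ER stress bar reaches 4.86% and the other 6 lie between 1.18% and 1.78%, and most of the added height comes from the HSP70 and HSP90 class, which goes from 0.258% to 2.09%.

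In glucose depletion changes were small and mostly upward. Of the 44 genes, 34 (77.3%) lay above the control and 10 below it, against 44.5% of kept genes above it, with a median of 0.16. The highest changes were those of Sdf2l1 (0.94), Creld2 (0.68), Manf (0.60) and Hspa5 (0.54). Among the 19 genes raised in ER stress the median change in glucose depletion was 0.41 and 18 were above 0, and among the other 25 the median was 0.06 and 16 were above 0. Both conditions are set against the same control library.

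In glutamine depletion and with arsenite most of the genes lay below the control, as did most kept genes. In glutamine depletion 5 of 44 (11.4%) were above the control, against 38.3% of kept genes, with a median of -0.20 against -0.09. In oxidative stress 6 of 44 (13.6%) were above it, against 32.6% of kept genes, with a median of -0.31 against -0.16. Apart from Sdf2l1, the lowest values were those of Creld2 (-0.70 in both), Hsp90b1 in oxidative stress (-0.62) and Dnajb11 in oxidative stress (-0.59). Ero1l (0.35) was the highest in glutamine depletion. In osmotic stress the median was -0.03 against -0.12 over all kept genes. Relative to the kept genes the medians were -0.11 in glutamine depletion, -0.15 in oxidative stress and 0.09 in osmotic stress, the last with its sign turned.

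In hypoxia 37 of the 44 genes stayed within 1.2-fold of the control, against 55.4% of kept genes. Besides Ero1l, the highest changes were those of Creld1 (0.58) and P4hb (0.52, 1293 to 1853 TPM), and the lowest was that of Fkbp11 (-0.43). All 10 HIF targets of a list were raised past 2-fold (median 3.21), among them Ldha, from 692 to 2381 TPM. The list was chosen with earlier results of these data known. Egln3 of the HIF targets passed the filter only through its hypoxia value, so its place in this count rests on that library. Outside hypoxia Egln3 was between 1.26 and 2.44 TPM. Of kept genes, 3.57% were raised in hypoxia. The collagen hydroxylases, whose prolyl 4-hydroxylases contain P4hb, had 4 of 6 genes raised in hypoxia (median 1.65) and 0 raised or lowered in ER stress (median -0.67). P4ha3 and Plod3 were the extremes of this list in ER stress, at -0.95 and -0.13, and neither was raised in hypoxia (0.18 and 0.14).

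Other genes of the secretory pathway, listed by function, were also raised in ER stress, where 8.6% of kept genes were raised and 11% lowered. Of 14 sensors and factors of the unfolded protein response 10 were raised and 0 lowered (median 1.15), with Ddit3, the factor CHOP, going from 136 to 1870 TPM and Atf4 from 276 to 773 TPM. Of 14 genes of ER-associated degradation 8 were raised and 0 lowered (median 1.27), with Derl3 going from 1.65 to 331 TPM (6.97) and Erlec1 changing by -0.39. Derl3 passed the filter only through its ER stress value, and outside ER stress it was between 0.300 and 3.64 TPM. Of 20 genes of translocation and export 6 were raised and 0 lowered (median 0.82), with Sec23b highest (1.64) and Ssr3 going from 411 to 858 TPM. The 11 chaperones of the cytosol and mitochondria had 0 raised and 3 lowered in ER stress (median -0.32), and 6 raised in oxidative stress (median 1.04), where Hspa8 went from 2473 to 5102 TPM. Of kept genes, 3.94% were raised in oxidative stress. In osmotic stress, where Dnajb9 was raised, 1 of the 14 response genes was raised and 3 were lowered (3.08% and 8.76% of kept genes). These lists were chosen with earlier results of the data known, and their counts are descriptions.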

How the data were processed

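Poly(A)-selected, stranded RNA-seq libraries of MEFs were sequenced as paired ends. The authors estimated transcript levels with kallisto 0.43.1 at default settings against Ensembl 90 cDNA (GRCm38). They deposited TPM per gene in 1 column per library, and labels gave the condition of each. From the deposited TPM, log2(TPM + 1) of the control was subtracted from that of each stress, with the 2-fold rule of the study's methods and a filter at a mean of 2 TPM, which kept 12909 genes. There is 1 library per condition, so no test was run.

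All members may be named. Values in all 7 libraries are given for Hspa5, Sdf2l1, the highest and lowest member of each subfamily in ER stress and members past 2-fold elsewhere, and up to 3 genes are named from each list of other genes. The members, lists and settings were chosen with earlier results of these data known.

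Coordinates are from GENCODE M21 (GRCm38) and promoters from RefSeq, with no promoter read for 7 members. Kallisto's default counting does not use strand, and GENCODE transcripts of 8 members share at least 10% of their 31-base words with other genes (Ppib, Tmx2, Erp29, Sdf2, Hsp90b1, Ero1lb, Dnajb9 and Txndc5). Scripts were tested on simulated data with known changes. Alternatives were pseudocounts of 0.1 and 5 TPM, no filter or a mean of 10 TPM, centring on all kept genes, totals without mitochondrial and member genes, thresholds of 1.5-fold and 3-fold, and the other stress libraries as reference. Values were computed in pandas 2.3.3 with numpy 2.4.6 (Python 3.11.15) and drawn in matplotlib 3.10.9.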

Additional observations from a re-analysis of the deposited data

Results flagged for a closer look

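Sdf2l1 was the one gene of the 44 that passed 2-fold in opposite directions in different stresses, with log2 changes of 4.22 in ER stress, -1.30 in glutamine depletion and -1.26 in oxidative stress. Each value comes from 1 library, and the difference between these conditions was not tested.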

How the results depend on the processing

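No paired analysis was possible because each condition has 1 library, and no library could be left out of a group for the same reason. The pseudocounts, the filters, the centring and the changed totals left all 12 counts of raised and lowered members within 1.5 times of the values given, and the same 19 genes were raised in ER stress under each of them. The 6 medians over the members moved by less than 1.5-fold under all 8 alternatives run for them, although that of hypoxia ranged from -0.0561 to 0.1316 and that of osmotic stress from -0.1027 to 0.0875, both across 0. At a threshold of 3-fold, 12 genes were raised in ER stress, 0 in osmotic stress, and 0 were lowered in glutamine depletion or in oxidative stress. At 1.5-fold, 4 genes were lowered in ER stress, 2 in glutamine depletion, 2 in osmotic stress and 4 in oxidative stress, and 3 were raised in glucose depletion. With the mean of the other 5 stress libraries as the reference, which holds the high ER stress values in every condition but ER stress, 4 genes were lowered in glutamine depletion, 3 in osmotic stress and 9 in oxidative stress, and 0 were raised in osmotic stress. With ER stress left out of that reference, an alternative chosen after seeing the data, 2 genes were raised in glucose depletion. Against the other stress libraries 20 genes were raised in ER stress, the 19 and Fkbp2 (1.08), and Ero1l went from 1.94 to 1.17. The shares of all kept genes raised or lowered were not computed under these alternative thresholds and references, so these counts stand without a background. With 1 library per condition and unknown depth, no error can be attached to any value.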

Other observations

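The libraries of glucose and glutamine depletion can be compared with each other without the control, so this difference shares no library with that of ER stress and control. Sdf2l1 was higher by 2.24 log2 units in glucose depletion than in glutamine depletion, Creld2 by 1.38, Manf by 1.05 and Hspa5 by 0.84, while Ero1l differed by -0.03. Of the 19 genes raised in ER stress 18 were higher in glucose depletion, with a median difference of 0.71, and of the other 25 all 25 were higher, with a median of 0.17. The share of kept genes that were higher was not computed. Against the control, the median over all kept genes was -0.02 in glucose depletion and -0.09 in glutamine depletion. Across the 44 genes, which are not independent replicates, the difference between the depletions and the change in ER stress had a Pearson r of 0.7998 and a Spearman rho of 0.790. Across all 12909 kept genes these were 0.00487 and -0.103. The same was computed for 3 other differences that leave out the ER stress and control libraries. Osmotic minus oxidative stress gave r of 0.497 and rho of 0.566 across the 44 genes (-0.0663 and -0.147 across all kept genes), and hypoxia minus glutamine depletion gave 0.462 and 0.601 (-0.00225 and -0.123). Hypoxia minus glucose depletion ran the other way, with r of -0.227 and rho of -0.601 (-0.00672 and -0.0579 across all kept genes). Its r was -0.604 without Ero1l and -0.191 without Sdf2l1. Without Ero1l, r was 0.833 for glucose minus glutamine depletion, 0.513 for osmotic minus oxidative stress and 0.608 for hypoxia minus glutamine depletion. Without Sdf2l1 these were 0.806, 0.478 and 0.373. These differences share libraries with one another, and r and rho are given as descriptions.

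Outside the folding genes, the ER stress response element was in the promoters of 9 other kept genes. In ER stress 5 of these were raised, against 8.6% of kept genes. Derl3 and Syvn1 of ER-associated degradation went from 1.65 to 331 TPM and from 39.1 to 258 TPM. Derl3 passed the filter only through its ER stress value, so its place in this count rests on that library. Alg12, a mannosyltransferase of N-glycan assembly, went from 9.82 to 38.5 TPM. Zfp57 went from 21.8 to 88.1 TPM and Xlr3b from 2.50 to 7.83 TPM. The other 4 were Hnrnpa3 (0.83), Adcy3 (-0.03), Pan2 (-0.08) and Spats2l (-0.65). These genes were named after their values were seen.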
